A study of Bos taurus with 43 samples.

Results

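DLK1, IGF2 and IGF2R are imprinted genes, expressed mainly from the allele of one parent, that bear on how much muscle a fetus and a young animal build. DLK1 encodes a transmembrane protein related to the Notch ligands and is known in livestock for the callipyge phenotype of sheep, in which its locus is expressed abnormally in muscle and the hindquarters become heavily muscled. IGF2 encodes insulin-like growth factor 2, a secreted growth factor of myoblasts that acts through IGF1R. The IGF2R protein binds IGF2 and carries it to the lysosome, and it is also the cation-independent mannose 6-phosphate receptor that sorts lysosomal enzymes in the Golgi.

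The genes were measured in biceps brachii, a muscle of the forelimb, on Agilent 1-colour bovine arrays, with 1 array for each of 43 male cattle. They are 3 of the 14409 genes that could be named on the array. Of its 21475 gene probes, 4 belonged to them, chosen by the gene name, the description or the symbol behind the accession. DLK1 and IGF2R had 1 probe each (A_73_110424 and A_73_118894) and IGF2 had 2 (A_73_104925 and A_73_105403), both designed on the same IGF2 transcript. Each probe was printed on 2 spots, which were averaged. All 4 passed the filter on dim probes, as did 16354 gene probes in all. Signals are given as normalized log2 values, on which a difference of 1 is a factor of 2, and they were set against each other within a probe only.

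The animals came from a study of whether illegal corticosteroid treatment can be seen in muscle RNA. Among commercial beef cattle of 12 to 24 months sampled at slaughter, 4 were labelled as suspected of treatment and are called positive here; the study's methods class them by thymus histology and by mass spectrometry. No drug, dose or time is given for them in the labels, but the study reports dexamethasone residues in their urine. The treatment of the other 21 commercial animals is unknown. By breed they were chiefly Charolais and Limousine, pure or crossed with each other as the cross-breed controls were. Negative controls came from earlier controlled experiments and were 5 Charolais × Limousine bulls of 18 months and 13 Holstein cattle of 13 to 18 months. The study split the unknown animals on plots of principal components of the same arrays, into 10 of a group B, which also held the positive animals, and 11 of a group A, which also held the cross-breed controls. Below, groups A and B stand for these unknown animals alone. Group A comprised 6 animals of the study's group 4, to which animal 76 of group B also belonged, and 5 of its group 2. Because DLK1, IGF2 and IGF2R were among the values behind those plots, these sets are described and no difference between them was tested.

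Slides and scans follow the groups. The cross-breed controls filled slides 1 to 4, the group A unknown animals slides 5 to 7 and the Holstein controls slides 13 to 19, with no other group on them. Only slides 8 and 9 held labelled groups together, the 4 positive animals with unknown animals 50, 81, 78 and 79 of group B. The cross-breed arrays were also read on scanners 1 and 2 with versions 9.1.3.1 and 9.5.3.1 of the extraction software, and all other arrays on scanner 3 with version 9.5.1.1. Group therefore cannot be told apart from slide in any comparison with a control group, nor from scanner and software in any with the cross-breed controls. In group B, 5 arrays (animals 29, 39, 52, 61 and 76) stood apart, with a mean signal of 7.75 to 8.41 for the spike-in probes, synthetic RNA added to every sample, against 11.33 to 13.40 on all others. The share of gene spots well above background ran from 62.3% to 73.2% on the Holstein arrays, 62.9% to 73.6% on the cross-breed arrays and 74.9% to 89.4% on the positive arrays. It ran from 66.3% to 79.2% in group A and from 40.2% to 97.3% in group B.

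Muscle markers were bright on every array. The mean log2 signal over 11 probes of fibre genes, such as ACTA1 (skeletal actin), CKM (muscle creatine kinase) and MB (myoglobin), lay between 13.59 and 15.97. For 6 leukocyte probes it lay between 5.999 and 8.91, and for 7 adipocyte probes between 5.62 and 10.27. In such bulk samples, fewer cells of a type and less RNA per cell cannot be told apart.

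The DLK1 probe stood at percentile 98.97 of mean signal, a rank of probes and not of RNA amounts. It was well above background on all 43 arrays. Its 2 spots differed by a median of 0.06 on the log2 scale. The positive animals read 15.69 (S21), 15.59 (S54), 16.22 (S56) and 15.73 (S57). In the cross-breed controls the values were 15.24 (K7), 15.29 (K8), 15.21 (K10), 15.44 (K11) and 15.37 (K12). All 4 positive animals were above all 5 cross-breed controls, a separation also found, in this direction, for 21.7% of the probes tested.

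Across the 13 Holstein controls DLK1 had a lowest value of 15.01, a median of 15.69 and a highest of 15.94, a range that encloses all 5 cross-breed controls. In group B it ran from 14.93 through a median of 15.81 to 16.01. The group A unknown animals were lower. Those of group 4 ran from 13.55 to 14.47 (median 14.25) and those of group 2 from 13.31 to 13.88 (median 13.42). Every one of these 11 animals lay below every one of the other 32 arrays, with a gap of 0.46 between animal 36 at 14.47 and animal 78 at 14.93. Of the 16354 probes tested, 353 (2.16%) were lower in these 11 arrays without overlap, and 89 (0.544%) were higher.

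In order of their medians, DLK1 went from group B over the positive animals, the Holstein controls and the cross-breed controls to groups 4 and 2 of group A. The place of group B rested on its 5 arrays of low spike-in signal, which had a median of 15.84, and the other 5 had a median of 15.36, below those of the positive animals (15.71) and the Holstein controls. Group B, the positive animals and the Holstein controls overlap each other, and the cross-breed controls lie within the Holstein range. Groups 4 and 2 overlap as well, between 13.55 and 13.88. The cross-breed controls and group 4 are the only neighbours in this order whose ranges do not overlap.

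**Figure D1:**
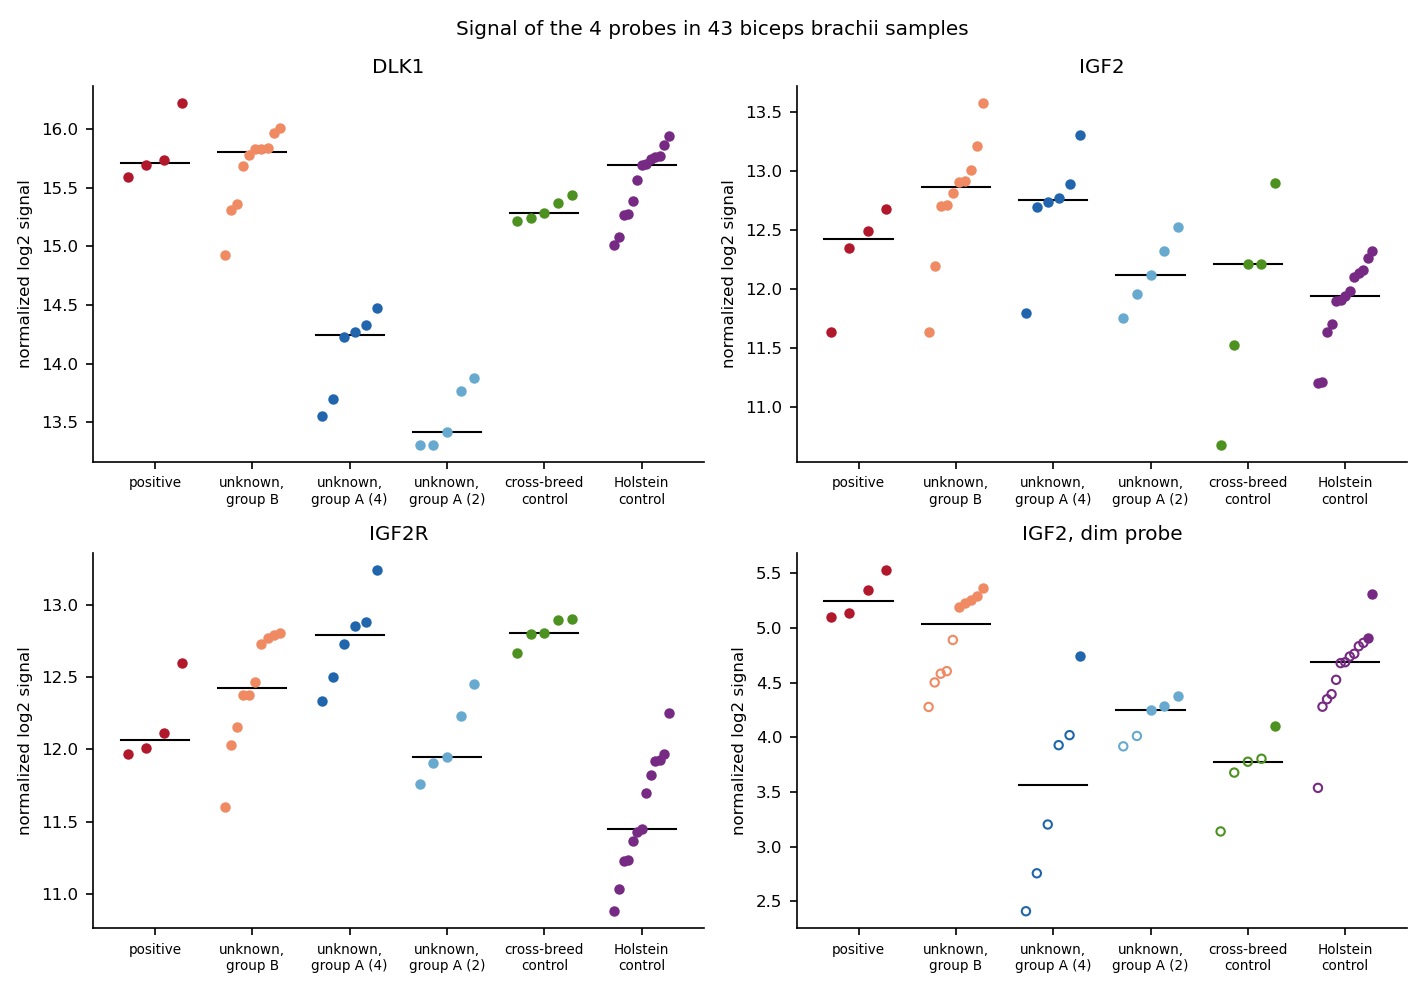
Normalized log2 signal of DLK1, IGF2 and IGF2R (1 point per animal, 43 animals) by set, with a black line at the median. Filled points had both spots well above background and open points did not; numbers in brackets are the study's groups 4 and 2 within group A. The 11 group A animals lie below all others for DLK1, and the Holstein controls lie below the cross-breed controls for IGF2R.

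DLK1 was followed by slide, since group A was all that slides 5 to 7 held. On slide 6, animals 36 and 58 of group 4 read 14.47 and 14.33 and animal 269 of group 2 read 13.77. Slide 5 carried 13.55 to 14.27 and slide 7 carried 13.31 to 13.88, so the 3 slides overlap. Slides 1 to 4 before them held the cross-breed controls at 15.21 to 15.44, and slide 8 after them held 15.31 to 16.22. The mean spike-in signal lay between 11.33 and 12.13 in group A. Leaving aside the 5 low arrays of group B, all other arrays had 11.94 to 13.40, and 5 of the 11 group A arrays lay below that range. The summed signal of the 11 fibre probes ran from 19.06 to 19.57 in log2 in group A (median 19.29). On the other 32 arrays it ran from 19.46 to 20.85 (median 20.38). That sum follows the brightest probes. The mean log2 signal over the 11 probes was 14.34 to 15.06 in group A, within the 13.59 to 15.97 of the other arrays. The medians of that mean were 14.59 and 15.52. Endothelial markers had a mean log2 signal over 6 probes of 10.03 to 10.60 in group 4 and 8.48 to 8.999 in group 2. Those 2 groups were drawn on the same arrays, and the share of all probes that separate them is not given here. The part of the spike-in signal and of these markers in the low DLK1 values was not tested, and slide cannot be told apart from group A.

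**Figure D2:**
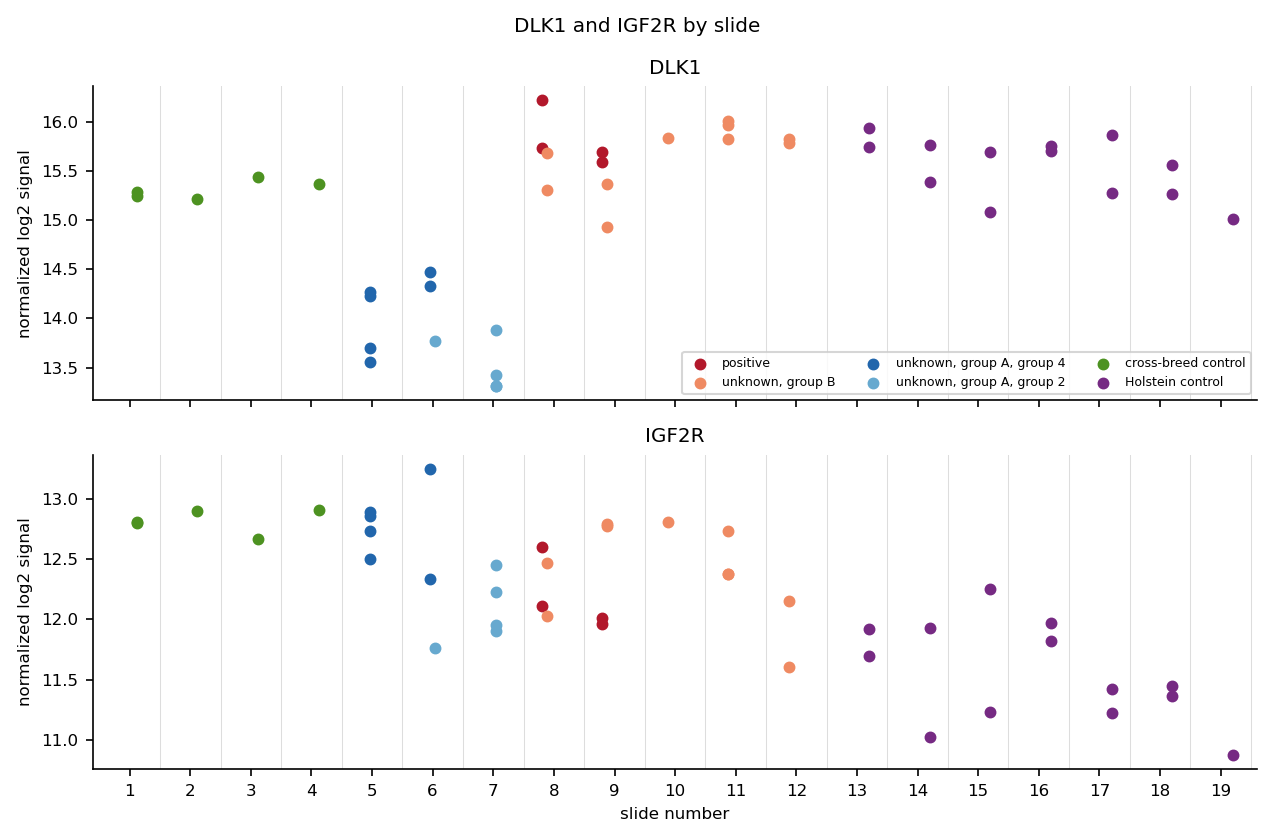
Normalized log2 signal of DLK1 (top) and IGF2R (bottom) against the slide that carried the array, 1 point per animal, coloured by set. DLK1 is below 14.5 on slides 5 to 7, and IGF2R has no such step there.

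IGF2 was read from probe A_73_104925, which was well above background on all 43 arrays. It varied more within groups than DLK1 did. Among the positive animals it read 12.49 (S21), 11.64 (S54), 12.68 (S56) and 12.35 (S57). The cross-breed controls read 12.21 (K7), 12.21 (K8), 10.68 (K10), 12.90 (K11) and 11.53 (K12), so that K10 and K11 lie at the ends of a range that holds all positive animals. The SD was 0.84 over these 5 controls against 0.09 for DLK1.

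For the Holstein controls the IGF2 signal ran from 11.20 through 11.94 to 12.32. Group B ran from 11.64 through 12.87 to 13.58, group 4 from 11.80 through 12.76 to 13.31, and group 2 from 11.76 through 12.12 to 12.53. Every set overlapped every other, but without its 5 arrays of low spike-in signal group B ran from 12.82 to 13.58, above all positive animals. The highest single value, 13.58, belonged to animal 50, which shared its slide with S56 and S57.

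The other IGF2 probe, A_73_105403, was dim. Both of its spots were well above background on 16 of the 43 arrays, among them all 4 positive arrays, 1 of 5 cross-breed arrays and 2 of 13 Holstein arrays, and its spots differed by a median of 0.35. The positive animals read 5.10 to 5.53, above the cross-breed range of 3.14 to 4.11 and across the upper end of the Holstein range of 3.54 to 5.32. On 4 of the 5 cross-breed arrays neither spot was well above background. The probes were not tested against each other.

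IGF2R was well above background on all 43 arrays, and its spots differed by a median of 0.03. The positive animals read 11.97 (S21), 12.01 (S54), 12.60 (S56) and 12.11 (S57). The cross-breed controls were higher and close together, at 12.80 (K7), 12.81 (K8), 12.90 (K10), 12.67 (K11) and 12.90 (K12). The highest positive animal, S56, stayed below the lowest of these controls, as in 21.6% of the probes tested.

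Holstein controls had the lowest IGF2R, from 10.88 through 11.45 to 12.25, without overlap with the cross-breed controls. Non-overlap in this direction was found for 8.08% of probes. In group B the signal ran from 11.60 through 12.42 to 12.81. Group 4 ran from 12.34 through 12.79 to 13.24 and group 2 from 11.76 through 11.95 to 12.45, so that they overlapped only between 12.34 and 12.45, the values of animals 36 and 265. By median the order was cross-breed controls, group 4, group B, positive animals, group 2 and Holstein controls, and the ranges of every neighbouring pair overlap. The positive animals and group 2 had medians of 12.06 and 11.95.

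The labelled groups were compared with limma over all 16354 probes, and a probe was called at a Benjamini-Hochberg adjusted p under 0.05 with at least a 2-fold difference. The comparisons with the cross-breed controls share those 5 arrays, and the comparisons of the positive animals share those 4, so they are not independent of each other.

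Against the cross-breed controls, 28.1% of all probes were called in the positive animals, 14.4% as higher and 13.8% as lower. The higher ones were 51.1% of the calls, against 39.1% with quantile normalization, 69.1% with scaling to the 75th percentile and 33.5% when arrays were normalized pair by pair, which moved the median of all probes to -0.13, 0.11 and -0.25. None of the 3 bright probes was among them. DLK1 was higher in the positive animals by 0.50 (SE 0.16, 1.41-fold, limma adjusted p = 0.022) and IGF2R lower by 1.56-fold (log2 difference -0.64, SE 0.16, adjusted p = 0.00686). Both had an adjusted p under 0.05, as did 51.7% of all probes, and both stayed short of 2-fold. With slide or scan day as a random block the adjusted p of DLK1 was 0.0508 or 0.0664, and that of IGF2R 0.0175 or 0.028. The IGF2 difference was 0.38 with a 95% confidence interval from -0.51 to 1.28 (adjusted p = 0.451). The dim IGF2 probe, measured above background on 1 of the 5 cross-breed arrays, was called, with 1.58 (SE 0.20, adjusted p = 1.18e-04), but the same probe gave -0.68 when the arrays were normalized pair by pair and 0.35 with another background correction, and neither value reached 2-fold.

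S56 was the highest positive animal for both genes. Without S56 the DLK1 difference was smaller, 0.36 (limma adjusted p = 0.0603), and the IGF2R difference larger, -0.78. Normalized pair by pair, the arrays gave 0.25 (adjusted p = 0.181) and -0.23 (adjusted p = 0.326) for them.

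Holstein controls differed from cross-breed controls in 20.6% of probes (10.9% higher and 9.69% lower in Holstein), and the higher ones were 52.9% of the calls, or 35.4% with scaling to the 75th percentile, where the median of all probes was -0.11. Without the fold limit, 48.4% passed on the adjusted p. IGF2R was one of those called lower, by 2.40-fold (log2 difference -1.26, SE 0.19, adjusted p = 3.45e-05). Under the alternatives run its difference stayed between -1.30 and -1.14. DLK1 differed by 0.23 (95% confidence interval -0.08 to 0.54, adjusted p = 0.2), and IGF2 by -0.02 (-0.58 to 0.53, adjusted p = 0.95).

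Between the positive animals and the Holstein controls 17.8% of probes were called (8.4% higher and 9.4% lower in the positive animals, 36.4% by the adjusted p alone), and none of the 4 was. The higher ones were 47.2% of the calls, against 35.7% with quantile normalization, 82.8% with the 75th percentile (median of all probes 0.19) and 28.5% pair by pair (median -0.26). IGF2R was higher in the positive animals by 1.53-fold (0.62, SE 0.22, adjusted p = 0.0355, or 0.0692 with scan day as a random block). DLK1 differed by 0.27 (95% confidence interval -0.10 to 0.63, adjusted p = 0.247) and IGF2 by 0.41 (-0.05 to 0.86, adjusted p = 0.147). The mean IGF2R of the positive animals, 12.17, lay between 12.81 in the cross-breed and 11.55 in the Holstein controls, and S21, S54 and S57 lay inside the Holstein range.

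Between the positive and the 21 unknown animals 0.0489% of probes (8) were called, all lower in the positive animals, and none was DLK1, IGF2 or IGF2R. That number was 1 with normexp, 121 with pair by pair normalization, 1390 with no filter on dim probes, 1406 with a filter on signal above background, and 0 without S54 or S57. The DLK1 means were 15.81 and 14.70, a log2 difference of 1.10 (2.15-fold, 95% confidence interval 0.09 to 2.12 in log2, limma adjusted p = 0.184). The unknown animals had an SD of 1.003, against 0.34 within group B and 0.43 within group A. On the shared slides 8 and 9, with the slide as a term, DLK1 was 0.49 higher in the 4 positive animals than in the 4 unknown ones (adjusted p = 0.374). There IGF2 was 0.79 lower (adjusted p = 0.304), with 12.82 to 13.58 in the unknown animals against 11.64 to 12.68. IGF2R differed by -0.34 (adjusted p = 0.602). No probe was called in that comparison.

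**Figure D3:**
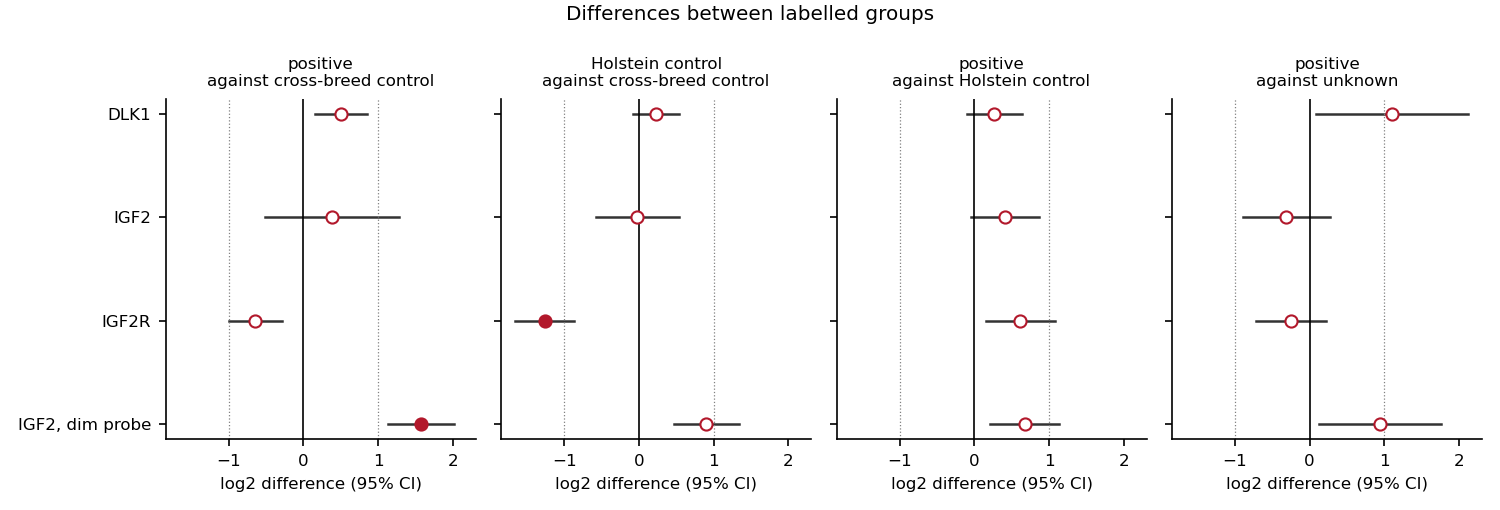
Log2 difference of each probe in the 4 tested comparisons, first group minus second, with its 95% confidence interval. Filled circles were called, and dotted lines mark 2-fold. The interval of IGF2R against the cross-breed controls lies below 0 for Holstein and positive animals, and DLK1 is past 2-fold, with a wide interval, only against the unknown animals.

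Other imprinted genes were taken from a list with 17 further tested probes. Of these, 4 were called higher and 0 lower in the positive animals than in the cross-breed controls, at a median difference of 0.05 beside -0.03 over all probes, of which 14.4% were called higher and 13.8% lower. The list had 3 higher and 5 lower when arrays were normalized pair by pair, and 6 and 0 with the 75th percentile. The 4 were PEG3, a zinc finger protein (2.47, SE 0.34), CDKN1C, a cell cycle inhibitor (1.46, SE 0.24), GNAS, the stimulatory G protein alpha subunit (1.16, SE 0.16), and NDN (1.09, SE 0.20). In Holstein against cross-breed controls 5 were called higher, among them PEG3 (2.58, SE 0.23), MAGEL2 (1.77) and PHLDA2 (1.48), and 1 lower, H19 (-1.34, SE 0.38), beside 10.9% and 9.69% of all probes. Between positive animals and Holstein controls KCNQ1 was higher (1.11) and MAGEL2 lower (-2.16). MAGEL2 had both spots well above background on 0 of the 4 positive and 0 of the 5 cross-breed arrays, so its differences carry no more than an upper level in those groups. Of 5 other normalizations, 3 kept the calls of NDN, of PHLDA2 and of MAGEL2 between positive and Holstein animals. None of the 17 was called between positive and unknown animals.

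PEG3 and GNAS had group A at the bottom, as DLK1 did, but with the cross-breed controls close above. PEG3 had a range of 9.94 to 12.46 in group A, 11.35 to 12.91 among cross-breed controls and 14.04 to 15.32 in group B. GNAS (A_73_102858) ran from 14.30 to 14.89 in group A, from 14.84 to 15.44 among cross-breed controls and from 16.01 to 16.50 in group B. Both genes therefore overlapped between group A and the cross-breed controls, which DLK1 did not. CDKN1C overlapped in the same way, with 8.33 to 10.00 and 8.55 to 9.64.

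**Figure D4:**
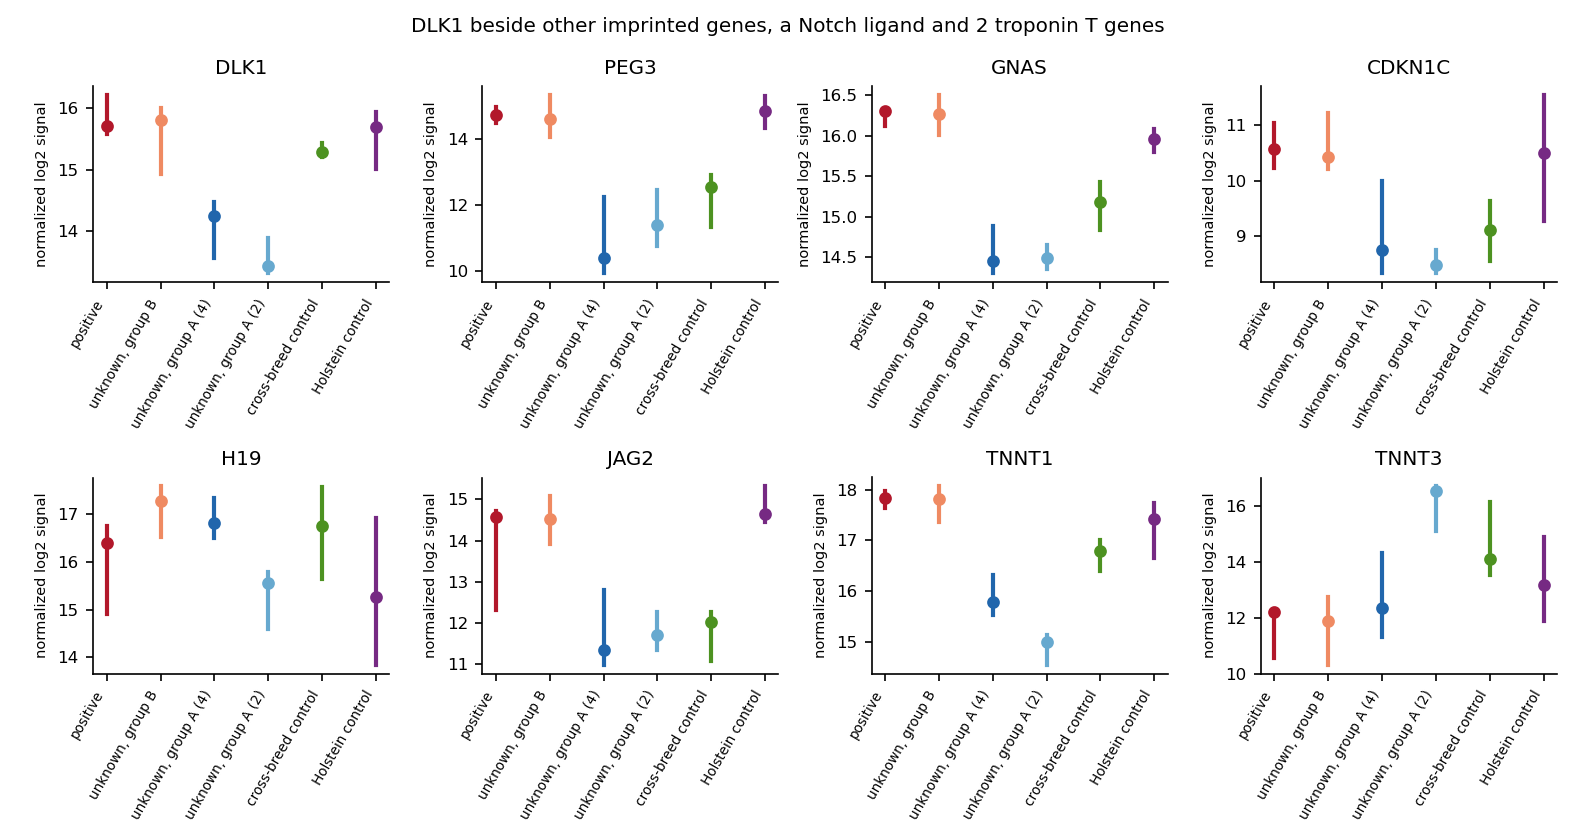
Median (point) and range from lowest to highest (line) of normalized log2 signal by set for DLK1, other imprinted genes (PEG3, GNAS, CDKN1C, H19), the Notch ligand JAG2, and the slow and fast troponin T genes TNNT1 and TNNT3. Axes differ between panels and levels are not comparable between genes. PEG3, GNAS, CDKN1C and JAG2 are low in group A and in the cross-breed controls, and TNNT1 is lowest in group A.

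The genes beside DLK1 and IGF2 in the RefSeq annotation (assembly ARS-UCD2.0) were read next, taking the 3 nearest named protein-coding genes on each side. RTL1 and DIO3, which follow DLK1 in the same imprinted cluster, were mostly near background. Both spots of RTL1 were well above it on 2 of 4 positive and 5 of 10 group B arrays. The same held on 2 of 11 group A, 0 of 5 cross-breed and 0 of 13 Holstein arrays. For DIO3 it held on 2 of 4 positive and 4 of 10 group B arrays, and on 0 arrays of every other set. PPP2R5C, a phosphatase regulator beyond them, ran from 11.32 to 11.997 in group 4 and from 11.14 to 11.51 in group 2. In group B it ran from 10.16 to 11.11. The share of all probes that separate groups A and B this way is not given here, and both groups were drawn on the same arrays. PPP2R5C was called in none of the 4 tested comparisons, with -0.02 (limma adjusted p = 0.946) in positive against cross-breed animals. WARS1, before DLK1, was lower in the positive animals than in the cross-breed controls (-1.30, SE 0.21), beside 13.8% of all probes called lower. WDR25, nearer to DLK1 on that side, was not called (-0.15). MEG3, the noncoding RNA next to DLK1, was not found among the probe names.

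H19, the noncoding RNA next to IGF2 that is expressed from the opposite parental allele, was bright on all arrays. It had medians of 15.27 in the Holstein controls (13.85 to 16.90), 16.75 in the cross-breed ones (15.63 to 17.56) and 17.25 in group B (16.52 to 17.57). On the other side of IGF2, the INS probe was 2.96-fold lower in the positive animals than in the cross-breed controls (-1.57, SE 0.21). TH was lower as well (-1.02, SE 0.15), beside 13.8% of all probes called lower. INS was dim, at 4.72 to 4.86 in the positive animals and 5.71 to 6.86 in the cross-breed controls. Its difference ran from -2.57 to -0.67 in 5 other normalizations, of which 4 kept the call. TNNT3, the fast skeletal troponin T gene, lies on the side of IGF2 away from INS and TH. It was lower by 6.57-fold in positive against cross-breed animals and by 2.77-fold in Holstein against cross-breed controls. Over all probes 13.8% and 9.69% were called lower there. MRPL23, between IGF2 and TNNT3, was called in neither (-0.62 and -0.81).

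The ligands, receptors and binding proteins of the IGF pathway had 19 further tested probes. Against the cross-breed controls the positive animals had 5 called higher and 3 lower, with a median of 0.25, beside 28.1% called over all probes. Pair by pair normalization gave 3 and 4, and normexp background correction 1 and 0. IGF1R, the receptor through which IGF2 acts, was higher by 1.03 (SE 0.14, 2.04-fold). PAPPA2, a protease that cleaves IGF binding proteins, was higher by 2.50 and IGF2BP2, an RNA-binding protein of IGF2 mRNA, by 2.41, while its relative IGF2BP3 was lower (-1.80). Of the other normalizations run, 1 of 5 kept the call of IGF1R and 3 of 5 those of IGF2BP2 and IGF2BP3, which had differences down to 0.14 and -0.22.

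IGFBP5, an IGF binding protein of muscle, had 2 probes. A_73_103570 was higher by 2.46 in the positive animals than in the cross-breed controls and was called, as in 4 of 5 other normalizations, where it ran from 0.84 to 2.86. A_73_110179 differed by 0.54 and was not called, with 13.65 to 14.26 among positive and 12.60 to 14.18 among cross-breed animals. The Holstein controls had 4 IGF probes called higher than in cross-breed controls, among them PAPPA2 (1.65), and 1 lower (IRS2, -1.22), beside 10.9% and 9.69% of all probes, and 1 and 0 with normexp. Against the Holstein controls, the positive animals had IGFBP3 higher by 1.45 (SE 0.20) and both IGF2BP3 (-2.38, SE 0.74) and IGFBP6 (-1.02, SE 0.23) lower, which 3 and 1 of 5 other normalizations also called. No IGF probe was called between positive and unknown animals.

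Notch genes, the family to which DLK1 is related, had 16 further tested probes. The ligand JAG2 was higher in the positive animals (2.25, SE 0.47) and in the Holstein controls (3.04, SE 0.20) than in the cross-breed controls, and the ligand DLL1 was lower in both (-2.39 and -2.95). Against the cross-breed controls, 3 Notch probes were called higher and 2 lower in the positive animals, where 14.4% and 13.8% of all probes were, and 3 and 3 in the Holstein controls, where 10.9% and 9.69% were. For the positive animals the counts were 1 and 3 pair by pair and 1 and 1 with normexp. NUMBL, a relative of the Notch inhibitor NUMB, and TNNT1, the slow skeletal troponin T, shared the full separation of DLK1. They were the only probes among all lists to do so, beside 2.16% of all 16354 probes. NUMBL was at most 4.95 in group A and at least 5.54 elsewhere, and TNNT1 was at most 16.32 and at least 16.40. Both spots of NUMBL were well above background on 2 of 11 group A arrays.

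For IGF2R as a sorting receptor, 13 probes of mannose 6-phosphate sorting and lysosomal enzymes were tested. In the positive animals 0 were called against the cross-breed controls, at a median of -0.29, beside 28.1% of all probes and a median of -0.03. With pair by pair normalization 5 were called lower (median -0.58), and 2 with quantile normalization. In Holstein against cross-breed controls GGA2, a Golgi adaptor for the receptor's cargo, was lower (-1.22, SE 0.16) and CTSL, cathepsin L, higher (1.18, SE 0.36), the only 2 of the 13 called, beside 20.6% of all probes. CTSL was lower in the positive animals than in the Holstein controls (-1.85, SE 0.37). Each of these 3 calls was kept in 3 of 5 other normalizations, and the CTSL differences came down to 0.15 and -0.23.

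Markers of other cell types differed between the groups as well, and their part in the differences above was not tested. Of 6 tested adipocyte probes 5 were called higher in the positive animals and 4 in the Holstein controls than in the cross-breed controls, beside 14.4% and 10.9% of all probes. FABP4, the fatty acid binding protein of adipocytes, read 1.75 to 6.44 in cross-breed, 9.30 to 10.34 in positive and 6.79 to 11.26 in Holstein animals. The list includes LPL, lipoprotein lipase, which muscle fibres also express. ADIPOQ, adiponectin, had both spots well above background on 0 of 5 cross-breed arrays. The sum of the list's signals had a median log2 value of 13.79 in the positive animals, 12.999 in the Holstein controls and 12.05 in the cross-breed controls.

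Of 9 fibroblast probes tested, 4 were called lower, such as COL1A1 (-2.35, SE 0.51), and 1 higher in the positive animals than in the cross-breed controls, beside 13.8% and 14.4% of all probes. Against the Holstein controls 7 were called lower in the positive animals (9.4% of all probes), such as COL3A1 (-3.28) and COL1A1 (-3.27), and 5 were called higher in the Holstein than in the cross-breed controls (10.9% of all probes). The sums of these signals had medians of 13.14, 15.59 and 14.11 in positive, Holstein and cross-breed animals. Endothelial probes were called higher in 3 of 6 cases in the positive animals than in the cross-breed controls, VWF among them (1.55), beside 14.4% of all probes, and in 1 case pair by pair and 2 with normexp. Of 4 blood probes 2 were tested, and both were called higher in the positive animals than in the cross-breed controls, beside 14.4% of all probes. HBA, a haemoglobin chain, differed by 1.71 (SE 0.23), and HBB by 1.001, which became -1.12 pair by pair. In the Holstein controls 1 was called higher than in the cross-breed controls, HBA (1.67), beside 10.9% of all probes. None of 6 leukocyte probes was called in the 4 comparisons, but 2 were lower in positive than in cross-breed animals pair by pair. Over all probes, 28.1% were called in positive and 20.6% in Holstein animals against cross-breed controls. In the positive animals 17.8% were called against the Holstein controls and 0.0489% against the unknown animals. Of 7 satellite cell probes none was called higher. Against the cross-breed controls 1 was called lower in the positive animals and 2 in the Holstein controls, beside 13.8% and 9.69% of all probes. Pair by pair, 3 were lower in the positive animals. In positive against Holstein animals 4 were called higher with the 75th percentile and 2 with quantile normalization. MYOD1, a myogenic factor, was lower in positive (-1.75) and Holstein animals (-1.47) than in the cross-breed controls. PAX7 was lower in the Holstein animals (-1.13), a call kept in 4 of 5 other normalizations.

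Of 11 fibre probes 2 were called higher and 4 lower in the positive animals than in the cross-breed controls, beside 14.4% and 13.8% of all probes, against 0 and 6 pair by pair and 4 and 4 with the 75th percentile. In Holstein against cross-breed controls 2 were higher and 2 lower, beside 10.9% and 9.69%, and 5 and 2 with the 75th percentile. ACTA1 was higher in positive (1.41, SE 0.19) and Holstein animals (1.14, SE 0.14) than in the cross-breed controls, calls kept in 4 and 3 of 5 other normalizations. The MYH1 probe A_73_102524 was lower in the positive (-4.25) and higher in the Holstein animals (1.64). The MYH1 probe A_73_117636, of a fast myosin heavy chain, read 7.53 to 13.64 in positive animals, 16.40 to 17.68 in cross-breed controls and 10.39 to 16.01 in group A. TNNT1 was higher in the positive animals than in the cross-breed controls (1.11, SE 0.16), from 0.10 to 1.58 and called in 3 of 5 other normalizations. In group A, TNNT3 ran from 11.31 to 14.31 in group 4 and from 15.10 to 16.69 in group 2. Groups 4 and 2 were drawn on the same arrays, and the share of all probes that separate them is not given here.

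Within sets, the 3 bright probes were correlated over animals in 9 relations, 3 pairs in each of 3 sets. DLK1 and IGF2R rose together over the 13 Holstein controls (Pearson r = 0.79, permutation p = 0.00178, adjusted p = 0.016; Spearman rho = 0.71, permutation p = 0.00862, adjusted p = 0.0776). Without the 2 animals farthest from the median DLK1, r was 0.68, and after centring on the scan day it was 0.83 over 12 animals. As a description, r was -0.39 over the 10 animals of group B and 0.50 over the 11 of group A. Centred on the scan day it was -0.74 over 9 animals of group B and 0.48 over 11 of group A, and no difference from the Holstein value was tested. DLK1 and IGF2 had r of -0.16 in the Holstein controls, -0.52 in group B and 0.68 in group A. IGF2 and IGF2R had 0.07, 0.09 and 0.58 in the same order. Of the 9 relations, only DLK1 with IGF2R in the Holstein controls had a Pearson permutation p under 0.05 after adjustment. All points share the array's normalization and depth. Spike-in signal was highest on the Holstein arrays C48 (13.40), C24 (13.33), C23 (13.22) and C17 (13.04). In that order they read 15.28, 15.01, 15.56 and 15.08 for DLK1 and 11.23, 10.88, 11.45 and 11.23 for IGF2R. C46, with a spike-in signal of 12.69, read 15.39 and 11.03. The part of the spike-in signal in the relation of DLK1 with IGF2R was not tested.

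**Figure D5:**
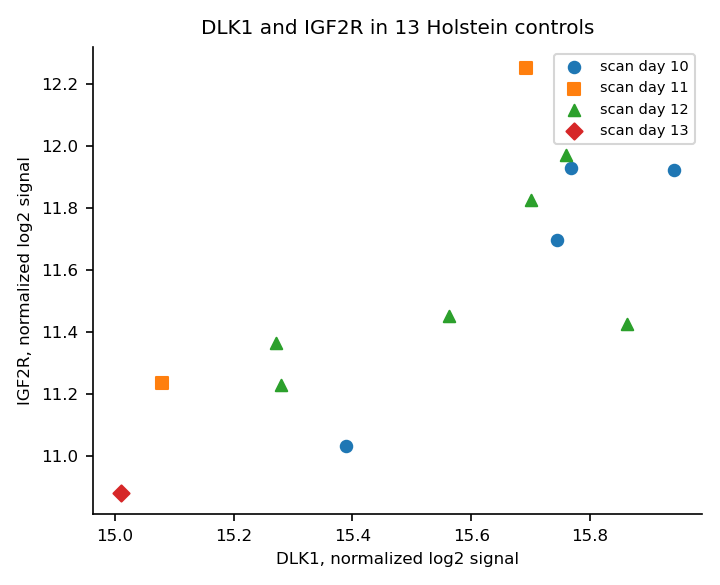
IGF2R against DLK1, both in normalized log2 signal, in the 13 Holstein controls, with a marker for each scan day. Animals with low DLK1 also had low IGF2R (r = 0.79), from 10.88 to 12.25.

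Over the same 13 Holstein arrays, 9747 other named probes well above background were ranked by their correlation with each gene, as a description of likeness only. Among the nearest to DLK1 were FBS1 and LDB3 (both r = 0.93), ELMO2 (0.91) and VPS8 (0.90). LDB3 encodes a protein of the muscle Z-disc. In group B these had r of -0.52, 0.43, -0.41 and 0.59, and in group A 0.48, 0.40, 0.02 and -0.66.

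Among the nearest to IGF2R were GLG1 and TMEM43 (both 0.94), GRN (0.93) and INPP5K (0.92). GLG1, which encodes a Golgi membrane glycoprotein, had r = 0.94 with IGF2R in group B and 0.81 in group A. GRN, progranulin, had 0.34 and 0.27, and TMEM43 had 0.76 and -0.63. For IGF2 (A_73_104925) FGR (0.86), AKR7A2 (0.81), DOHH (0.80) and MARVELD1 (0.80) were among the nearest, with r in group B from -0.59 to 0.42.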

How the data were processed

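Per the file headers and the study's methods, the authors hybridised 1 sample per 1-colour Agilent array, scanned it and took intensity values (background-subtracted processed signals) with Feature Extraction (versions 9.1.3.1, 9.5.1.1 and 9.5.3.1). They also deposited a table of normalized intensities from cyclic loess, of which the log2 was taken here. The genome build was not given in the sources used here. From the deposited intensities, log2 processed signals of gene and spike-in spots on 43 arrays were normalized together by cyclic loess (limma 3.58.1, R 4.3.3), outlier spots were left out and the 2 spots of a probe averaged. Probes under 4 (log2) on 30 or more of 43 arrays were left out, which removed 5121 of 21475. Probes were named by accession through RefSeq, then by the design's gene name or description, and 6074 of 21475 have no name here. Groups come from the labels. The unknown animals' sets were read from the study's principal component plots.

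limma (lmFit and eBayes, only the arrays of the compared groups) tested 4 comparisons with Benjamini-Hochberg adjustment over 16354 probes, after a check on simulated data. Each array is 1 animal. The number of arrays limits the precision. Alternatives were quantile normalization, scaling to the 75th percentile, cyclic loess on every pair, normexp (offset 50) and the log2 of the authors' table. Other filters, all arrays in 1 fit, slide or scan day as random blocks, and leaving out animals were also run. Named list genes are up to 3 called probes per list, comparison and direction, and for likeness the 5 probes of highest r per gene, some of which are not reported here. Genes and lists were chosen with earlier results of these data known, and NDN, IGF1R, the IGFBP5 probe not called, the neighbouring genes and those drawn beside DLK1 were picked after their values were seen. Correlations used 100000 permutations (scipy).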

Additional observations from a re-analysis of the deposited data

How the results depend on the processing

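DLK1 stayed lower in all 11 group A animals than on the other 32 arrays under every normalization run, with a gap from 0.074 (loess between every pair of arrays) to 0.49 (the authors' values). Its median difference between groups A and B was -2.03, and -2.43 with scaling to the 75th percentile. No alternative changed a call of DLK1, IGF2R or IGF2 (A_73_104925). The adjusted p of DLK1 between positive animals and cross-breed controls ran from 0.00215 to 0.456, the last with all 43 arrays in 1 fit, and that of IGF2R from 0.00182 to 0.326. DLK1 changed sign once, in Holstein against cross-breed controls with pairwise loess (-0.00498).

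IGF2 (A_73_104925) in that comparison lay near 0 and took the other sign with quantile normalization (0.00804), the 75th percentile (0.0526), pairwise loess (0.0811), normexp (0.0333), the authors' values (0.0113) and scan day as a block (0.00735), and leaving out 1 cross-breed control gave -0.33 to 0.23. The dim IGF2 probe reversed with pairwise loess in positive against cross-breed (-0.68), Holstein (-1.90) and unknown animals (-0.69). Its median in group A minus group B went from -1.03 to -1.68 with the 75th percentile, -0.0579 with normexp and -0.30 with pairwise loess. For IGF2R that difference was 0.03, and -0.0663 with quantile normalization, -0.45 with pairwise loess and -0.0669 with the authors' values.

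Called probes against cross-breed controls numbered 4597 in positive animals, with 1378 after normexp and 7589 with no filter on dim probes, and 3361 in Holstein controls, with 1350 after normexp. For positive against Holstein animals the 2911 became 5638 with pairwise loess, 487 with normexp and 5843 with no filter. For positive against unknown animals the 8 became 39 with quantile normalization, 2 with the 75th percentile, 121 with pairwise loess (11.6% of them higher), 1 with normexp, 34 with the authors' values, 1390 with no filter, 1406 with a filter on signal above background, 1053 with all arrays in 1 fit and 2 with scan day as a block. They became 17 without the 5 unknown animals of lowest spike-in signal, 0 on the shared slides and 0 to 2 when 1 positive animal was left out. The cause of these shifts was not tested. In a comparison added after seeing the data, 94 of 96 calls among the listed genes kept their sign under the 5 other normalizations and 42 were called in all of them. DLL3 (-0.82) and HBB (-1.12) reversed in positive against cross-breed animals. The dim IGF2 probe had both spots well above background on 16 of 43 arrays. No paired analysis was possible because replicate numbers follow accession order and pair no animals.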
